A study of Mus musculus with 5 samples.

Results

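Transcripts of 46 enzymes of central carbon metabolism were examined, out of 34240 features measured, in sorted normal myeloid cells and in sorted cells of an acute myeloid leukaemia (AML). The enzymes were taken from the table by gene name, from a list of central carbon enzymes, and fall into 19 of glycolysis, 5 of the pyruvate dehydrogenase step, 7 of the pentose phosphate pathway, 12 of the tricarboxylic acid (TCA) cycle and 3 of glycogen metabolism. All 46 were found in the table. The 3 normal libraries came from Gr1+Mac1+ cells of bone marrow and 2 AML libraries from Mac+Gr1+B220+ cells of bone marrow and spleen, all from BALB/c mice aged 10 to 12 months. CNTRL-FGFR1, in which the kinase FGFR1 is joined to centriolin, had been used to induce the leukaemia. The comparison asks how the leukaemia cells differ in expression from their normal counterparts. Spleen as a tissue and B220 as a sorting marker occur in the AML group alone, so neither can be told apart from leukaemia. The labels do not say whether libraries came from separate animals or whether animals were pooled, so p-values measure the spread between these samples, which may be technical.

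Glycolysis splits glucose into pyruvate in the cytosol and yields ATP quickly without oxygen. Neutrophils, whose mitochondria are sparse, are known to depend on it, and they keep glycogen as a local glucose store. The pentose phosphate pathway branches off at glucose phosphate. Its oxidative arm makes NADPH, which neutrophils spend on the oxidative burst, and its other arm makes ribose for nucleotides. Pyruvate dehydrogenase carries pyruvate into mitochondria as acetyl-CoA, and the TCA cycle oxidises it and supplies precursors for biosynthesis.

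Levels are given as RPKM, which corrects read numbers for transcript length and sequencing depth, a unit inferred from the values, and they can therefore be compared between genes. Normal library 3 stood apart from normal libraries 1 and 2. Its correlation with them over tested genes was 0.924 and 0.944, against 0.988 between those 2 libraries. Granulocyte genes were abundant in every library, with S100a8 and S100a9 making up 20.8% to 37.0% of all RPKM. Of 10 granulocyte markers Mpo and Elane rose in AML cells, and Itgam and Ly6g, which encode the sorted antigens Mac1 and a form of Gr1, fell with Csf3r and Ltf while staying at 169 RPKM or more (Itgam) and 482 RPKM or more (Ly6g). All 8 monocyte markers fell in AML cells, and their summed level ranged from 539 to 909 RPKM in normal libraries and from 36.4 to 38.9 RPKM in AML libraries. The 8 erythroid markers summed to 1539, 979 and 106 RPKM in normal libraries 1 to 3 and to 117 and 128 RPKM in AML libraries. The 6 eosinophil and basophil markers summed to 640, 652 and 13.9 RPKM in normal and to 119.5 and 241 RPKM in AML libraries. The T and NK cell markers summed to between 55.4 and 62.8 RPKM in normal and to 613 and 570 RPKM in AML libraries, although 4 of the 8 (Cd2, Lck, Ncr1 and Cd8a) were under 1 RPKM throughout. The remaining markers did not move together, since Cd3e, Cd3g and Nkg7 rose and Cd3d fell in AML cells. Cd3d measured 42.0, 45.5 and 38.4 RPKM in normal and 16.5 and 17.2 RPKM in AML libraries. The 8 B cell markers summed to between 10.5 and 18.2 RPKM in all 5 libraries, with no marker at 0 throughout. What part these cells have in the differences described here was not tested. In such bulk samples fewer cells of a type and less RNA per cell cannot be told apart.

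Most central carbon enzymes did not pass the test between leukaemia and normal cells, and the 6 that did were all higher in AML cells. These were Gpi1 and Pfkl of glycolysis, Pgls and Rpia of the pentose phosphate pathway, Suclg2 of the TCA cycle and Pdk1, a kinase that switches off pyruvate dehydrogenase. Pdk1 reached the filter on low values only through the AML libraries and so had to be higher. It therefore adds no support to the counts that include it. Mean levels of the other 5 were between 1.80 and 2.29 times those in normal cells. Of 46 members 45 reached the filter of 1 RPKM in at least 2 libraries, and Aldoc did not. Among these 45, 6 passed in the higher direction (limma, Benjamini-Hochberg adjusted p under 0.05), against 19.3% of all 10166 tested genes. Without Pdk1 this was 5 of the 44 members that passed the filter through both groups. None passed in the lower direction, against 11.8% of all tested genes. In either direction 13.3% of members passed, Pdk1 among them, against 31.0% of all tested genes. At an unadjusted limma p under 0.05, 11 members with Pdk1 (24.4%) were higher and 2 (4.44%) lower, against 26.5% and 17.4% of all tested genes. The median log2 fold change of the 45 members was 0.19, and that of all tested genes was 0.12. Fold changes are on the scale of log2(RPKM + 1), which understates the change of weakly expressed genes.

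These calls, like those over all tested genes, depended on which libraries were included and on the scaling of the values. The number of decimals in the deposited table also went with direction, since 28 of 33 tested members given to 2 decimals had a log2 fold change above 0 and 1 of 12 given to 1 decimal did (5121 of 5417 and 565 of 4749 over all tested genes), and its part in the result was not tested beyond rounding all values to 1 decimal, which left the 6 calls as they were. None of the 6 passed when normal library 1, normal library 2, AML library 1 or AML library 2 was left out, and none passed without both normal libraries 1 and 2, while without normal library 3 all 6 passed, with Idh3a and Mdh2 beside them, and G6pdx, Gbe1, Pdha1 and Pdk3 passed in the lower direction. Over all tested genes the share that passed as higher also moved, from 19.3% with all libraries. It was 10.7% without normal library 1, 8.45% without normal library 2 and 27.2% without normal library 3. Log2 fold changes of the 6 members stayed between 0.62 and 1.21 with any 1 library left out. Scaling the libraries to a common median ratio, which sets the median of all genes to 0, left Pdk1 and Suclg2 as higher members and added G6pdx as a lower one. The same scaling turned the split over all genes from 1959 higher and 1196 lower to 1498 higher and 1504 lower.

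**Figure D1:**
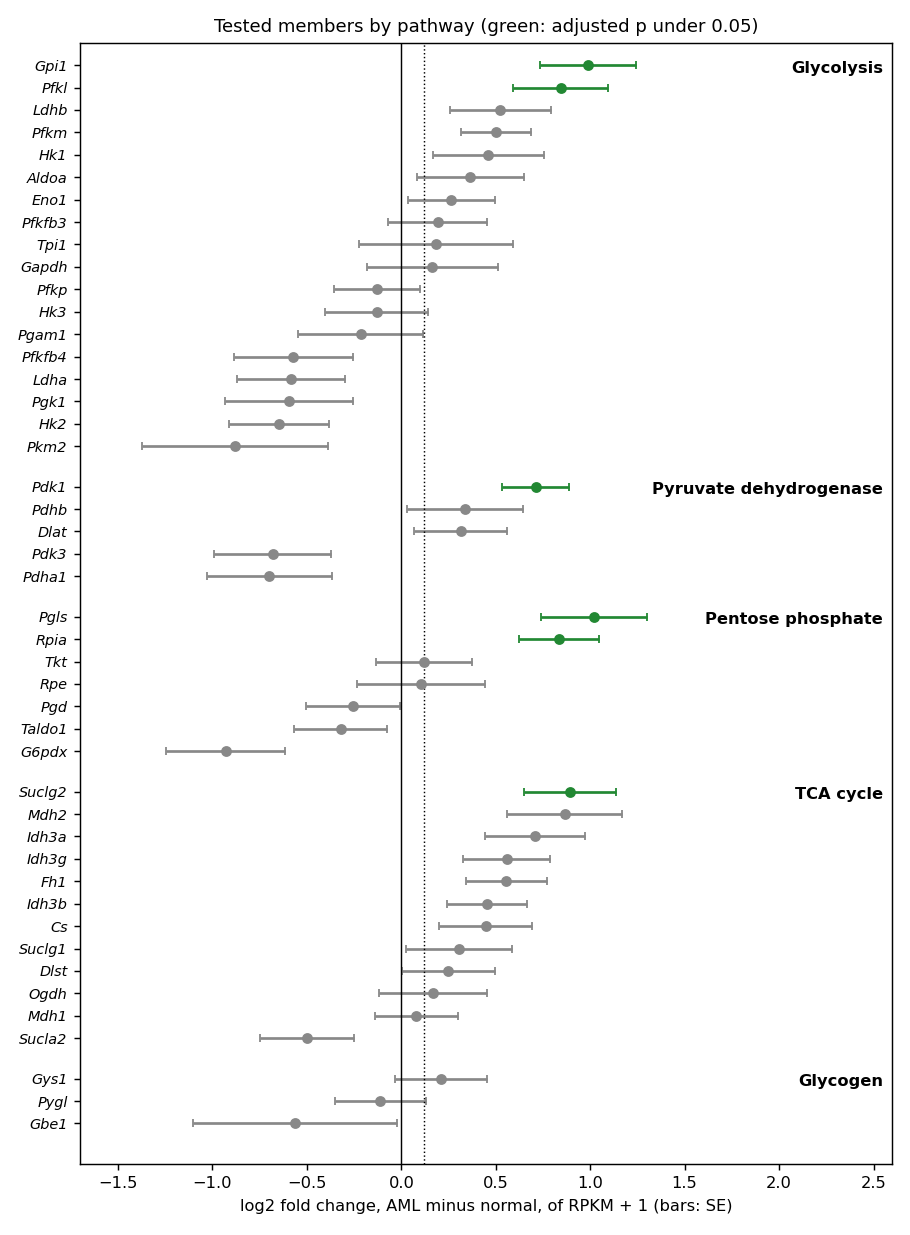
Log2 fold change of RPKM + 1, AML minus normal, for the 45 tested members by pathway, with bars for the standard error and a dotted line at the median of all tested genes (0.12). The 6 members that passed the test (green) all lie between 0.71 and 1.02, while glycolytic and pentose phosphate members spread to both sides of 0 and 11 of 12 TCA members lie above it.

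In glycolysis 2 genes of early steps passed the test, and the abundant enzymes of its later steps did not. Of 18 tested members Gpi1 and Pfkl rose (11.1%) and none fell, against 19.3% and 11.8% of all tested genes. A log2 fold change above 0 was seen for 10 and below 0 for 8, and the median was 0.17. At an unadjusted limma p under 0.05, 3 (16.7%) were higher and 1 (5.56%) lower, against 26.5% and 17.4% of all tested genes. The summed level of the 19 genes was 1884, 1835 and 2269 RPKM in normal libraries 1 to 3 and 2524 and 2144 RPKM in AML libraries 1 and 2, so the groups overlapped.

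Gpi1 encodes glucose phosphate isomerase, which turns glucose phosphate into fructose phosphate, and it had the highest mean of the 19 glycolytic members in AML cells. It stood at 380, 385 and 462 RPKM in the normal libraries and at 822 and 795 RPKM in the AML libraries. Both AML libraries lay far above every normal one and close to each other. Mean levels of 409 ± 46.3 RPKM (SD, n = 3) and 808 ± 18.8 RPKM (SD, n = 2) differed 1.98-fold, with a log2 fold change of 0.99 (SE 0.25) and a limma adjusted p of 0.026. Gpi1 (ENSMUSG00000036427.4) lies on chromosome 7 from 34987141 to 35015308 (mm9). Its annotated span overlaps Gm17327 on the opposite strand, and 1 intronless copy of its coding sequence lies elsewhere in the genome, so some reads may belong to those loci.

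Hexokinases, which trap glucose by phosphorylating it, were dominated by Hk3 in both groups, and none of the 3 passed the test. Hk3, the isozyme typical of myeloid cells, measured 144, 133 and 199 RPKM in normal and 131 and 154 RPKM in AML libraries. Hk2, the inducible isozyme, measured 22.4, 17.1 and 23.3 RPKM in normal and 15.6 and 10.6 RPKM in AML libraries. Its groups did not overlap, as for 22.1% of all tested genes in this direction, but its log2 fold change of -0.65 (SE 0.26) missed the threshold (limma adjusted p = 0.10). Hk1, the isozyme of most tissues, measured 37.3, 25.2 and 23.4 RPKM against 46.4 and 32.7 RPKM, with overlapping groups. The share of Hk2 in the summed RPKM of the 3 hexokinases was 11.0%, 9.77% and 9.47% in normal and 8.07% and 5.36% in AML libraries.

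Phosphofructokinase, the committed step of glycolysis, differed in the mix of its isozymes. Pfkl, the liver-type subunit, stood at 5.73, 5.73 and 8.41 RPKM in normal and 13.7 and 11.4 RPKM in AML libraries, with no overlap. It rose 1.90-fold (log2 fold change 0.84, SE 0.25, limma adjusted p = 0.043) and lies on chromosome 10 from 77449692 to 77472828 (mm9). Pfkp, the platelet-type subunit, stood at 11.7, 10.0 and 13.6 RPKM against 11.0 and 10.2 RPKM, within the same range in both groups. Pfkm, the muscle-type subunit, was the weakest at 1.25, 1.07 and 1.01 RPKM against 1.79 and 2.19 RPKM (log2 fold change 0.50, SE 0.18, adjusted p = 0.079). Pfkl therefore made up 30.7%, 34.1% and 36.5% of the summed phosphofructokinase RPKM in normal libraries and 51.7% and 47.9% in AML libraries. Pfkp made up 59.1% to 62.6% in normal libraries and 41.5% and 42.9% in AML libraries. Pfkp was the leading isozyme in each normal library and Pfkl in each AML library. With 3 against 2 libraries an exact permutation test of a share cannot reach the threshold of 0.05, so these shares are given as values.

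The bifunctional enzymes that make and break down the sugar bisphosphate activating phosphofructokinase did not pass the test. Pfkfb4 measured 58.2, 51.2 and 96.3 RPKM in normal and 44.2 and 43.9 RPKM in AML libraries, without overlap (log2 fold change -0.57, SE 0.31, limma adjusted p = 0.20). Pfkfb3 measured 20.2, 19.3 and 17.1 RPKM against 27.1 and 17.2 RPKM, with overlap. Normal library 3 held the highest Pfkfb4 level, 1.76 times the mean of the other normal libraries.

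Among aldolases Aldoa supplied over 99.8% of the summed RPKM in every library. Aldoa, which cleaves fructose bisphosphate, measured 299, 283 and 428 RPKM in normal and 444 and 409 RPKM in AML libraries. Normal library 3 lay among the AML libraries. Aldoc, the brain-type aldolase, stayed between 0.24 and 0.69 RPKM in all 5 libraries and was not tested.

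From triose phosphate to lactate the AML libraries often disagreed with each other. Pkm2 is the name given in the table to the muscle-type pyruvate kinase gene, which makes pyruvate, and a value per gene does not separate its M1 and M2 splice forms. It measured 335, 316 and 196 RPKM in normal libraries and 258 and 85.7 RPKM in AML libraries, with overlapping groups (log2 fold change -0.88, SE 0.49, limma adjusted p = 0.21). Tpi1, triose phosphate isomerase, measured 67.0 RPKM in AML library 1 and 25.4 RPKM in AML library 2, a range that enclosed all normal libraries (30.7 to 39.8 RPKM). Pgam1, phosphoglycerate mutase, likewise measured 60.0 and 28.7 RPKM around normal values of 47.1 to 51.1 RPKM. Pgk1, phosphoglycerate kinase, measured 49.0, 55.5 and 41.8 RPKM in normal and 45.6 and 22.0 RPKM in AML libraries.

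Gapdh, which oxidises glyceraldehyde phosphate, had the largest SD of all members in the normal group, at 208, 213 and 398 RPKM, against 293 and 290 RPKM in AML libraries. Its log2 fold change of 0.16 turned to -0.046 under quantile normalization, so Gapdh gives no direction here. Gapdh has 71 intronless copies at 95% identity or more in the mm9 genome, and the sources used here do not say how the authors treated reads shared with them. Eno1, enolase, measured 90.9, 88.5 and 108 RPKM against 113 and 116 RPKM, a narrow gap with no overlap that did not pass (log2 fold change 0.26, SE 0.23, adjusted p = 0.40).

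Ldhb made up a larger share of lactate dehydrogenase in both AML libraries, although neither gene passed the test. Ldha, the subunit favoured in glycolytic cells, measured 121, 132 and 167 RPKM in normal and 114 and 74.6 RPKM in AML libraries (log2 fold change -0.58, SE 0.29, limma adjusted p = 0.16). Ldhb, the heart-type subunit, measured 10.2, 12.6 and 7.31 RPKM against 15.3 and 13.9 RPKM (log2 fold change 0.52, SE 0.27, adjusted p = 0.18). Both genes had groups without overlap, in opposite directions. The share of Ldhb in their summed RPKM was 7.77%, 8.67% and 4.19% in normal libraries and 11.8% and 15.7% in AML libraries.

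**Figure D2:**
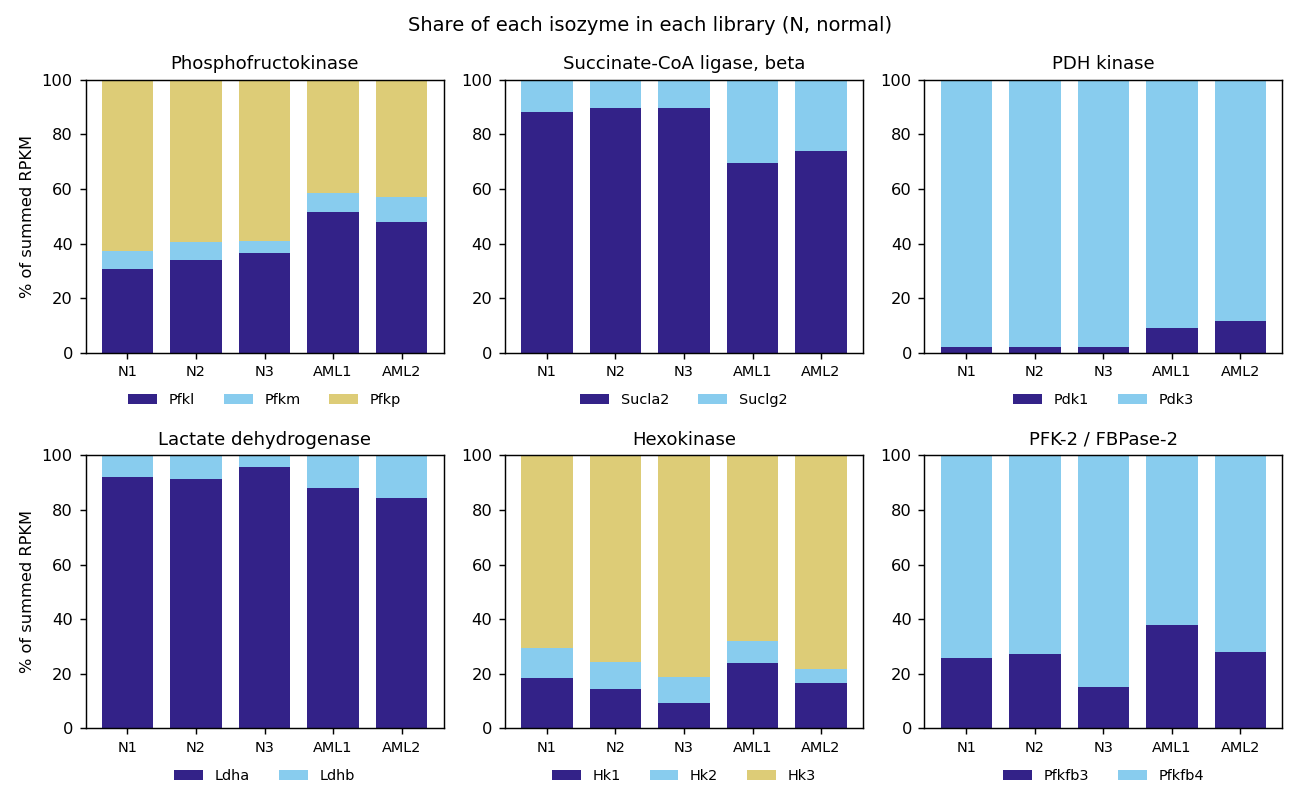
Share of each isozyme in the summed RPKM of the listed members of its family, in percent, for each of the 3 normal (N) and 2 AML libraries. The Pfkl, Suclg2, Pdk1 and Ldhb shares are larger in both AML libraries than in any normal library, while hexokinase is mainly Hk3 throughout.

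At the pyruvate dehydrogenase step the kinase Pdk1 rose and the enzyme's own subunits did not pass. Pdk1 stood at 0.49, 0.56 and 0.34 RPKM in normal and at 1.55 and 1.24 RPKM in AML libraries, and its means differed 3.01-fold (log2 fold change of 0.71 with SE 0.18, limma adjusted p = 0.024). It passed the filter only through the AML libraries and so had to differ, and its level stayed low in both groups. It lies on chromosome 2 from 71711281 to 71741915 (mm9). Pdk3, the main kinase of the pair in these cells, measured 21.5, 24.5 and 15 RPKM in normal and 15.4 and 9.40 RPKM in AML libraries, with overlap through normal library 3. The share of Pdk1 in the summed RPKM of both kinases was 2.23%, 2.23% and 2.22% in normal libraries and 9.14% and 11.7% in AML libraries. This share leaves out Pdk2, a further kinase that is not a member and lay above Pdk1 in every library. Pdk2 measured 2.0, 2.0 and 1.3 RPKM in normal and 1.6 RPKM in each AML library. Of the subunits, Pdha1 measured 25.4, 27.2 and 18.0 RPKM against 19.2 and 10.0 RPKM, and Pdhb 20.4, 33.4 and 27.2 RPKM against 27.0 and 42.1 RPKM. Dlat, the acetyl-transferring subunit, ranged from 4.69 to 7.97 RPKM over all libraries.

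The pentose phosphate pathway showed contrary values within its oxidative arm. Of 7 tested members Pgls and Rpia rose (28.6%) and none fell, against 19.3% and 11.8% of all tested genes. The median log2 fold change was 0.10. At an unadjusted limma p under 0.05, 2 (28.6%) were higher and 1 (14.3%) lower, against 26.5% and 17.4% of all tested genes. The summed level was 1383, 1372 and 1496 RPKM in normal and 1453 and 1245 RPKM in AML libraries, which overlapped.

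In the oxidative arm G6pdx, the glucose phosphate dehydrogenase that makes the first NADPH and limits the pathway, measured 138, 124 and 137 RPKM in normal and 96 and 50 RPKM in AML libraries. Both AML libraries lay below all normal ones but the gap between the AML libraries was itself wide. The log2 fold change of -0.93 (SE 0.32) missed the threshold (limma adjusted p = 0.064). It passed under upper quartile scaling (adjusted p = 0.043), median-ratio scaling (0.035) and quantile normalization (0.045), and without normal library 3 (0.048) or AML library 1 (0.037), in a range of 0.035 to 0.33 over all alternatives. Without AML library 2 the log2 fold change was -0.47. The annotated span of G6pdx (chromosome X, 71654822 to 71674533, mm9) overlaps that of Ikbkg on the opposite strand.

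Pgls, the lactonase of the next step, went the other way, at 45.97, 56.6 and 76.3 RPKM in normal and 112 and 127 RPKM in AML libraries. Both AML libraries exceeded normal library 3, the highest normal one. Pgls rose 2.01-fold (log2 fold change 1.02, SE 0.28, limma adjusted p = 0.034). It lies on chromosome 8 from 74116075 to 74124991 (mm9), where its span overlaps Fam129c on the same strand. Pgd, the dehydrogenase that makes the second NADPH, measured 366, 347 and 417 RPKM against 334 and 296 RPKM, a gap without overlap that did not pass (log2 fold change -0.26, SE 0.25, adjusted p = 0.45).

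In the other arm Rpia, which makes ribose phosphate, showed the tightest values of all members that passed. It stood at 39.4, 40.7 and 42.1 RPKM in normal and 73.9 and 73.1 RPKM in AML libraries. The spread within each group was small beside the 1.80-fold rise (log2 fold change of 0.83 with SE 0.21, limma adjusted p = 0.026). Rpia lies on chromosome 6 from 70715714 to 70742226 (mm9), without an annotated gene overlapping it or an intronless copy by the criteria used.

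The other enzymes of that arm did not pass. Tkt, transketolase, was the most abundant at 410, 386 and 373 RPKM in normal and 477 and 375 RPKM in AML libraries. Taldo1, transaldolase, measured 346, 376 and 429 RPKM against 317 and 294 RPKM, without overlap (log2 fold change -0.32, SE 0.25, limma adjusted p = 0.35). Rpe, which makes xylulose phosphate, measured 37.9, 41.9 and 21.9 RPKM against 42.2 and 29.3 RPKM, with overlap. The signs of Tkt and Rpe turned under median-ratio scaling and quantile normalization.

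**Figure D3:**
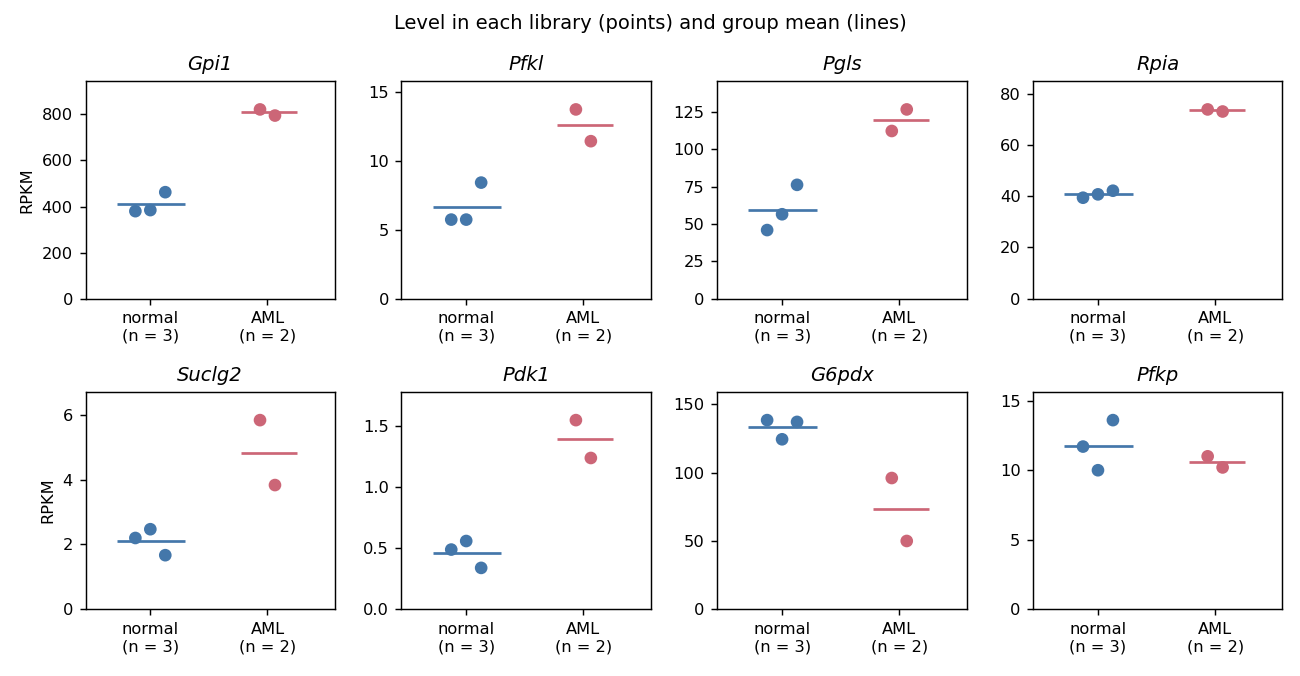
RPKM of 8 members in each library (points) with group means (lines), 3 normal libraries in blue and 2 AML libraries in red, each panel starting at 0. Rpia and Gpi1 show the widest gap relative to the spread within groups, G6pdx is lower in both AML libraries with a wide gap between them, and Pfkp overlaps.

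Of 12 TCA cycle transcripts 1 passed the test, and the summed level was higher in both AML libraries than in any normal one. Suclg2 rose and none fell, against 19.3% and 11.8% of all tested genes. Of the 12 log2 fold changes 11 were above 0 (55.9% of all tested genes were), and the median was 0.45. The count above 0 was 10 or 11 under every alternative that tested all 12, a check chosen after seeing the data. Both AML libraries exceeded all normal ones for 7 of the 12, against 34.8% of all tested genes. At an unadjusted limma p under 0.05, 5 (41.7%) were higher and none lower, against 26.5% and 17.4% of all tested genes. The summed level was 428, 450 and 509 RPKM in normal and 712 and 617 RPKM in AML libraries. Without Mdh2, the most abundant member, it was 307, 340 and 330 RPKM against 429 and 407 RPKM, still without overlap. Other genes of the cycle and its side reactions, including succinate dehydrogenase, lay the other way. Of 14 tested genes in that list 2 rose and 1 fell, 11 had a log2 fold change below 0, and the median was -0.40. Both AML libraries lay below all normal ones for 5 of the 14 and above for 2. The list summed to 471, 459 and 402 RPKM in normal and 425 and 315 RPKM in AML libraries, with overlap. The higher sum of the 12 members is therefore not a property of all TCA genes measured. Both direction counts also went with the number of decimals deposited. The 12 members, except Sucla2 and Mdh1, had 2 decimals, as had 5417 tested genes, 5121 of them above 0. Most of the 14 other genes had 1 decimal, and all of these lay below 0. Over all tested genes 565 of 4749 with 1 decimal lay above 0. Rounding all values to 1 decimal was among the alternatives that kept the 12 members at 10 or 11 above 0. Beyond this, what part the decimals have in these counts was not tested.

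The succinate-CoA ligase genes differed in balance. Suclg2 encodes the beta subunit that makes the ligase specific for GDP and Sucla2 the one specific for ADP, and both pair with the alpha subunit Suclg1. Suclg2 stood at 2.20, 2.47 and 1.67 RPKM in normal and 5.83 and 3.83 RPKM in AML libraries (2.29-fold higher, log2 fold change 0.89, SE 0.25, limma adjusted p = 0.033). Sucla2 stood at 16.5, 21.4 and 14.6 RPKM against 13.2 and 10.8 RPKM, without overlap but not passing (log2 fold change -0.50, SE 0.25, adjusted p = 0.17). It was the single TCA member below 0. Suclg2 made up 11.8%, 10.3% and 10.3% of the summed beta subunit RPKM in normal libraries and 30.6% and 26.2% in AML libraries. Suclg1 measured 16.7, 21.3 and 14.3 RPKM in normal and 26.5 and 17.4 RPKM in AML libraries, with overlap. Suclg2 lies on chromosome 6 from 95423006 to 95668792 (mm9) and has 1 intronless copy elsewhere.

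Citrate synthase and the NAD-dependent isocitrate dehydrogenase lay above normal in both AML libraries without passing. Cs, which forms citrate, measured 58.1, 55.7 and 64.9 RPKM in normal and 95.2 and 69.4 RPKM in AML libraries. Idh3a, the catalytic subunit, measured 7.23, 8.63 and 11.6 RPKM against 17.3 and 13.5 RPKM (log2 fold change 0.71, SE 0.27, limma adjusted p = 0.084). Idh3g, a regulatory subunit, measured 40.6, 49.5 and 43.8 RPKM against 60.4 and 71.9 RPKM. Idh3b, a further subunit, measured 27.8, 30.6 and 29.2 RPKM against 42.2 and 38.5 RPKM, and its annotated span overlaps that of Nop56 on the opposite strand. The 3 subunits thus shared the direction of their gaps. Log2 fold changes of Idh3g and Idh3b were 0.56 (SE 0.23, adjusted p = 0.11) and 0.45 (SE 0.21, adjusted p = 0.15).

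In the last steps of the cycle Fh1 and Mdh2 lay above normal in both AML libraries, also without passing. Fh1, fumarate hydratase, measured 16.9, 20.5 and 18.8 RPKM in normal and 27.4 and 28.4 RPKM in AML libraries (log2 fold change 0.55, SE 0.21, limma adjusted p = 0.090). Mdh2, the mitochondrial malate dehydrogenase, measured 121, 110 and 179 RPKM against 283 and 211 RPKM (log2 fold change 0.86, SE 0.30, adjusted p = 0.070). Without normal library 3, where it was highest among normal libraries, Mdh2 passed (adjusted p = 0.010, in a range up to 0.58 over all alternatives). Mdh1, its cytosolic counterpart, was nearly level at 24.9, 30.6 and 28.4 RPKM against 29.7 and 29.3 RPKM. Its sign turned under each of the 3 scaling alternatives. Ogdh and Dlst, subunits of oxoglutarate dehydrogenase, had overlapping groups at 20.4 to 33.0 RPKM and 67.3 to 103 RPKM over all libraries.

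Glycogen enzymes had overlapping groups, and none of 3 passed in either direction, nor did any at an unadjusted limma p under 0.05. Pygl, the phosphorylase that releases glucose from glycogen, was among the most abundant members at 393, 364 and 403 RPKM in normal and 376 and 341 RPKM in AML libraries. Gys1, glycogen synthase, ranged from 29.3 to 42.6 RPKM over all libraries. Gbe1, the branching enzyme, measured 31.3, 29.8 and 9.40 RPKM in normal and 18.9 and 9.90 RPKM in AML libraries. Normal library 3 lay below both AML libraries for Gbe1, which passed in the lower direction when that library was left out (log2 fold change -1.10, limma adjusted p = 0.020) and turned positive without both other normal libraries (0.50).

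**Figure D4:**
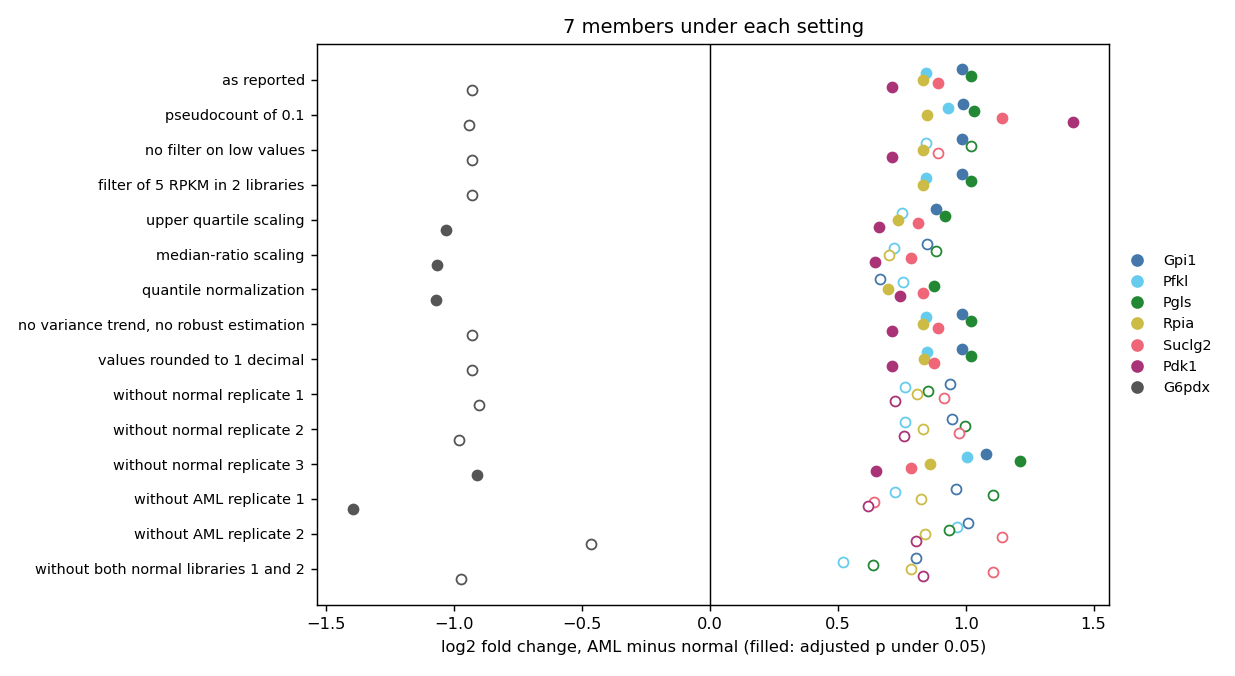
Log2 fold change, AML minus normal, of the 6 members that passed and of G6pdx under each processing alternative, filled where the limma adjusted p was under 0.05. Every value keeps its sign, but all 6 higher members are open circles when any single library other than normal library 3 is left out, and Suclg2 and Pdk1 are not tested at 5 RPKM.

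A list of 100 further genes of these pathways held 78 tested genes, of which 17 rose and 7 fell, with a median log2 fold change of 0.18. Together 30.8% passed, close to the 31.0% of all tested genes. In the gluconeogenic direction all 4 tested genes rose. Fbp1, fructose bisphosphatase, which opposes phosphofructokinase, averaged 4.03 ± 1.47 RPKM in normal and 16.3 ± 4.43 RPKM in AML libraries (SD, n = 3 and 2, limma adjusted p = 0.0083). G6pc3, the glucose phosphatase of neutrophils, and Slc37a4, which carries its substrate into the endoplasmic reticulum, were 4.13-fold and 3.87-fold higher. Pck2, the mitochondrial phosphoenolpyruvate carboxykinase, was 3.26-fold higher. Of 11 tested transport genes 2 rose and 3 fell, together 45.5%. The glucose transporter Slc2a3 fell 2.37-fold, from 118 ± 22.9 to 49.9 ± 4.95 RPKM (SD), and its relative Slc2a6 10.7-fold. Among monocarboxylate carriers Slc16a3, which exports lactate, fell 2.14-fold, Slc16a1 rose from a mean of 1.83 to 4.67 RPKM, and Bsg, the chaperone of both, rose 2.44-fold. In the remaining lists Eno3, muscle enolase, rose from 3.48 ± 1.83 to 19.5 ± 14.4 RPKM (SD), with 9.35 RPKM in AML library 1 and 29.7 RPKM in AML library 2.

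Of 11 tested regulators 2 rose and 2 fell (36.4%, against 31.0% of all tested genes), with members of the hypoxia response on both sides. Hif1a and Arnt encode the partners that form HIF-1, an activator of many glycolytic genes. Hif1a went from 19.97 ± 4.61 to 8.35 ± 4.45 RPKM (SD; log2 fold change -1.23, SE 0.36, limma adjusted p = 0.040), and Arnt was 2.28-fold lower. Egln3, a prolyl hydroxylase that marks HIF for destruction and is itself induced by it, was 2.69-fold higher. Myc, which also drives glycolytic genes, was 11.0-fold higher.

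The cores of sites that HIF-1 binds include ACGTG, and MYC binds CACGTG, which contains it. The promoters of the members were searched for both. The 250 bases before RefSeq transcript starts (assembly GRCm38.p6) were read for 45 members in 64 windows, and Idh3a had none. ACGTG on either strand occurred in 35.9% of member windows and in 16.6% of all 32841 windows. CACGTG occurred in 9.38% and 6.02%. Ogdh alone held 6 of the 23 member windows with ACGTG and 3 of the 6 with CACGTG, and without it the shares were 29.3% and 5.17%. Counted by gene, 34.1% of 44 tested members held ACGTG in a window, against 26% of all tested genes with a window. Of the 6 members that rose, Pdk1 included, none held ACGTG in a window. Over tested members with ACGTG in a window the median log2 fold change was -0.11 (15 genes, 7 above 0), and over those without it 0.26 (29 genes, 21 above 0). Over all tested genes the medians were 0.14 with the motif and 0.11 without it. Single members went against either median, such as G6pdx (-0.93) without ACGTG and Idh3g (0.56) with it, both named after their values were seen. Such a match is a description of letters and not of binding. The windows of the 4 members with the highest log2 fold change among those that passed are printed so that their letters can be read beside the results. They belong to Pgls (chr8:71591934-71592183, plus strand), Gpi1 (chr7:34230337-34230586, minus strand), Suclg2 (chr6:95718847-95719096, minus strand) and Pfkl (chr10:78009808-78010057, minus strand), with positions of GRCm38.p6. They are in lower case throughout, since capitals would mark a match to ACGTG on either strand and none was found. Other forms of the HIF-1 core were not searched for, and GCGTG can be read in the Pgls and Pfkl windows.
Pgls: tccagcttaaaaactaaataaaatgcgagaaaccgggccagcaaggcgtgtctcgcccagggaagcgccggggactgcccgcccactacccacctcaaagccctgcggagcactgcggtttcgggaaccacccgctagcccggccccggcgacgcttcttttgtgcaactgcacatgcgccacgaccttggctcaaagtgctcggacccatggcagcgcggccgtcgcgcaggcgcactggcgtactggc
Gpi1: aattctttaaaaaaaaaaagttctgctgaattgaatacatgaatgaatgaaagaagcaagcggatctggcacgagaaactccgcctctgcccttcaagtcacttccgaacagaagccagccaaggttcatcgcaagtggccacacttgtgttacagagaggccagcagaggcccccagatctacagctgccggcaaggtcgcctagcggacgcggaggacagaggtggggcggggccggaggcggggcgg
Suclg2: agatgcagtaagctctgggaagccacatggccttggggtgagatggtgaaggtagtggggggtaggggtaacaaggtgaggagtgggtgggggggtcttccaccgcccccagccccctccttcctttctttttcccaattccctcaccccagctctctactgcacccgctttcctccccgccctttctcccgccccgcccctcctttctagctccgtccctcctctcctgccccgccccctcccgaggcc
Pfkl: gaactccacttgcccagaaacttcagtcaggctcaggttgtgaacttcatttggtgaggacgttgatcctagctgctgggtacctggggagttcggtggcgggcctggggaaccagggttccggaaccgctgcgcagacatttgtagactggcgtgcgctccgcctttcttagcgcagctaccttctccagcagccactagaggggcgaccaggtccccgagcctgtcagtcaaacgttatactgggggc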

How the data were processed

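Total RNA from sorted cells was made into cDNA libraries with an Illumina TruSeq kit, per the labels' protocols. The deposited table holds 1 column per library, matched to samples by title, with values taken as RPKM made by the authors. The unit was inferred, since multiplying values by exon kilobases gave library sums of 1052560 to 1118080. Per the submitters' processing notes the genome was mm9. Aligner, counting and strand use were not given in the sources used here. Low-value steps of single-exon genes fitted best at about 33250000 reads in normal library 1 (69.0% of 216 values whole within rounding, 26.6% by chance), a rough figure that was less clear elsewhere. Precision therefore rests on the 5 libraries.

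The 10166 genes that reached 1 RPKM in 2 or more libraries were compared as log2(RPKM + 1) by limma 3.58.1 under R 4.3.3 (moderated variances with trend and robust estimation, two-sided, Benjamini-Hochberg over all tested genes, threshold 0.05), after a test on simulated data. Fits without a library kept the same genes, and a lone library was assumed to vary like the other group. Members and lists were chosen with earlier results of these data known. Values were printed for members that passed, isozymes and leading members, and from further genes for the 3 largest changes each way. Others are named after their values were seen. Gene positions are from GENCODE M1 (mm9). Intronless copies were unbroken BLAST 2.17.0 matches outside the gene, at 95% identity or more over 50% or more of the coding sequence. Alternatives were another pseudocount, filter, scaling, variance model or rounding, and left-out libraries.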

Additional observations from a re-analysis of the deposited data

How the results depend on the processing

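Of 45 tested members 34 kept their direction under every alternative that tested them (14, or 13 for Pfkm, Pdk1 and Suclg2) and 11 did not, none of which had passed the test. The cause was not tested for any change below, except where a gene was no longer tested. With no filter on low values 3 members passed as higher, among them 1 of glycolysis, 1 of the pentose phosphate pathway and 0 of the TCA cycle, and a filter of 5 RPKM also left 0 of the TCA cycle, since Suclg2 was then no longer tested. Upper quartile scaling gave 1 lower member, of the pentose phosphate pathway, and 1 higher one in glycolysis. Median-ratio scaling gave 2 higher members (0 in glycolysis, 0 in the pentose phosphate pathway) and 1 lower, again in the pentose phosphate pathway. Quantile normalization gave 0 higher in glycolysis and 1 lower, in the pentose phosphate pathway. Leaving out normal libraries 1 and 2 together gave 536 higher genes, 612 lower genes and 0 higher members in all, in glycolysis, in the pentose phosphate pathway and in the TCA cycle. Leaving out 1 library at a time gave 653 (without AML library 2) to 2761 (without normal library 3) higher and 432 to 2159 lower genes, 0 to 8 higher and 0 to 4 lower members, 0 to 2 higher in glycolysis, 0 to 2 higher and 0 to 1 lower in the pentose phosphate pathway, and 0 to 3 higher in the TCA cycle. Log2 fold changes that turned were Mdh1 (-0.019 with upper quartile, -0.054 with median-ratio, -0.021 with quantile), Rpe (-0.030 with median-ratio, -0.0065 with quantile), Tkt (-0.017 and -0.14 likewise), Gapdh (-0.046 with quantile), and, without both normal libraries 1 and 2, Gapdh (-0.45), Aldoa (-0.0048) and Gbe1 (0.50). With 1 library left out the range was -0.25 to 0.045 for Hk3 (turned without normal library 3) and -0.73 to 0.30 for Pgam1 (without AML library 2). It was -0.12 to 0.50 for Pfkfb3, -0.50 to 0.86 for Tpi1, -0.052 to 0.29 for Tkt and -0.15 to 0.48 for Ogdh (without AML library 1), and -0.17 to 0.36 for Rpe (without normal library 3 or AML library 1). Rounding to 1 decimal moved isozyme shares by less than 1 SD. No paired analysis was made because the labels do not state a link between any normal library and an AML library.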

Other observations

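AML library 2 lay below AML library 1 for 37 of 46 members, against 59.3% of all tested genes. Pkm2, Tpi1, Pgam1 and Pgk1 were at 0.332, 0.379, 0.478 and 0.482 times their level in AML library 1, while Gpi1 (0.968) and Gapdh (0.991) were nearly level. Of the tested members 10 had an intronless copy, and their median log2 difference between AML library 2 and AML library 1 was -0.32, against -0.25 for the 35 without one. Over all tested genes these medians were -0.11 (825 genes) and -0.13 (9047 genes).

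Some genes of neighbouring pathways changed by more than any member, by log2 fold change. Pmm1, a phosphomannomutase of mannose metabolism, averaged 3.46 ± 0.637 RPKM in normal and 40.2 ± 4.50 RPKM in AML libraries (SD), and Galk1, galactokinase, was 5.24-fold higher. Got1, the cytosolic aspartate aminotransferase of the malate-aspartate shuttle, fell from 17.9 ± 1.80 to 0.80 ± 0.141 RPKM (SD), a 22.4-fold difference (log2 fold change -3.39, limma adjusted p = 0.00031), while Mdh1, the shuttle's cytosolic malate dehydrogenase, was at 28.0 ± 2.87 and 29.5 ± 0.283 RPKM (SD). Idh2, the mitochondrial NADP-dependent isocitrate dehydrogenase, was 2.34-fold higher.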
